A study of Mus musculus with 24 samples.

Results

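Transcripts of 10 genes of the integrated stress response were followed through the maturation of mouse primitive erythroid cells, the red cells that arise first in the yolk sac. The genes are Eif2ak1, Atf4, Ddit3, Atf5, Trib3, Asns, Chac1, Sesn2, Gtpbp2 and Ppp1r15a. Every probe annotated to 1 of these symbols was taken, whatever its signal. This gave 19 of the 45719 probes on the array and 10 of its 17583 annotated genes. Of the 19 probes, 17 could be tested among the arrays with 1 round of RNA amplification and 13 among those with 2 rounds, since the others were too dim. All 10 genes had a probe in both tests.

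The cells carried a human epsilon globin::H2B-EGFP transgene, in which an epsilon-globin promoter drives a fluorescent histone, and GFP(+) cells were sorted at daily intervals from E7.5 to E12.5. All groups share this transgene and no treatment is labelled. The 24 Illumina bead arrays comprised E7.5 and E8.5 amplified in 2 rounds (n = 3 each) and, amplified in 1 round, E8.5 (n = 6) and each later day up to E12.5 (n = 3 each). Cells up to E9.5 were released from whole embryos with collagenase and later cells were taken from the blood, while each replicate was a pool of embryos up to E10.5 and a single embryo at E11.5 and E12.5. The comparison of E10.5 with E9.5 therefore also crosses from digested embryos to blood, and that of E11.5 with E10.5 from pools to single embryos. The series states that replicates are independent.

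In the integrated stress response, kinases phosphorylate the initiation factor eIF2, which lowers translation in general and favours translation of a few mRNAs such as that of Atf4. The kinase encoded by Eif2ak1, known as HRI, is active when heme is scarce and is best known from red cell precursors, where it keeps globin synthesis in step with heme. ATF4 then induces genes of amino acid supply, further transcription factors, and a phosphatase subunit that reverses the phosphorylation. Transcript levels, which were measured here, do not show eIF2 phosphorylation or ATF4 protein.

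Depth on an array is the number of probes above background. At a detection p under 0.05 this was 13159 to 14037 probes after 2 rounds, 12355 to 15387 at E8.5 to E11.5 after 1 round, and 8542 to 10570 at E12.5. Slides of 6 arrays carried 2 groups each. E9.5 was on slide 2 with E8.5 replicates 1 to 3, E12.5 was on slide 3 with E8.5 replicates 4 to 6, and the days between them were together on slide 4. Stage and slide cannot be told apart in E10.5 against E9.5 or in E12.5 against E11.5. Within slide 3, E12.5 can be set against E8.5, but this comparison crosses from pools of digested embryos to blood of single embryos. Stage cannot be told apart from these changes there. All 11 erythroid marker genes on the array, among them Gata1, Klf1 and Alas2, were detected on every array of every stage amplified in 1 round, and 8 of 11 on every E7.5 array. At E12.5 none of 6 macrophage and leukocyte markers was detected. In these sorted populations, fewer cells of a type and less RNA per cell cannot be told apart.

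The brightest probes of Trib3, Gtpbp2 and Eif2ak1 rose both from E7.5 to E8.5 and again up to E12.5. Ppp1r15a and Ddit3 rose at E12.5, Asns fell by E12.5, and Chac1 fell after E8.5. A probe was called at an adjusted p under 0.05 by limma's moderated test with Benjamini-Hochberg adjustment over all probes tested. From E7.5 to E8.5, 6 of 13 member probes were higher and 0 lower, against 6.04% higher and 6.03% lower among all probes tested. Of the 6, the dimmest Eif2ak1 probe was bright enough to be tested only through its E8.5 arrays, so it could only be called higher. From E8.5 to E9.5, 1 member probe was higher and 2 lower of 17, against 7.57% and 8.99% of all. Of the 2, the Chac1 probe was bright enough to be tested only through its E8.5 arrays, so it could only be called lower. From E9.5 to E10.5 a single member probe, of Gtpbp2, was higher and none lower, against 1.09% and 0.615% of all. From E10.5 to E11.5, 3 were higher and 1 lower, against 5.09% and 5.43% of all.

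The largest number of calls was at the last step, where the background was also high. From E11.5 to E12.5, 8 member probes of 5 genes were higher and 2 probes of Asns lower, against 23.6% and 23.5% of all probes. From E8.5 to E12.5, 10 probes of 6 genes were higher and 3 probes of 2 genes lower, against 32.2% and 35.1% of all. The Chac1 probe among these 3, tested only through its E8.5 arrays, could only be called lower. The median log2 difference of the 17 member probes was 1.43 between E8.5 and E12.5, and that of all probes was -0.05. A test for any difference among the stages amplified in 1 round called 13 of 17 member probes, of 8 genes, against 72.9% of all. The shares called are near the background in this last test, and it is the sizes and directions given below that describe the members.

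**Figure D1:**
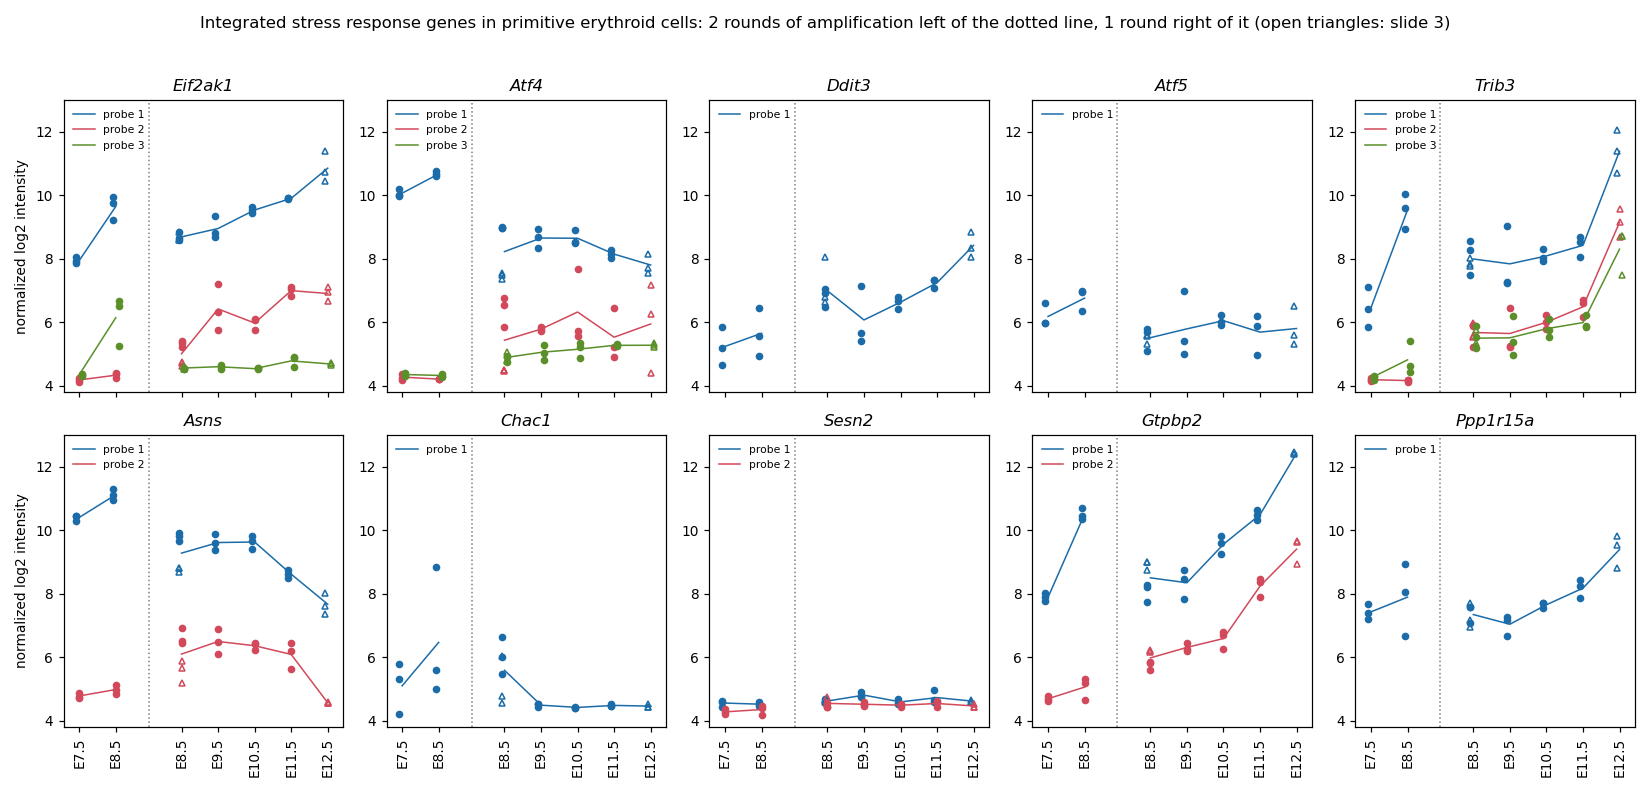
Normalised log2 intensity of every probe of the 10 genes on every array, by stage. Points are arrays, open triangles are arrays of slide 3, lines join stage means, and the dotted line separates arrays with 2 rounds of amplification, on the left, from those with 1 round, which were normalised apart. Gtpbp2, Trib3, Ppp1r15a and the brightest Eif2ak1 probe are highest at E12.5 among the stages with 1 round, Asns is lowest there, and Chac1 is above background mainly at E8.5.

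Eif2ak1 encodes the heme-regulated kinase. After 2 rounds of amplification its brightest probe, ILMN_2709398, read 7.86, 7.94 and 8.05 at E7.5 and 9.24, 9.76 and 9.96 at E8.5, in log2 units of normalised intensity. After 1 round it ranged from 8.6 to 8.85 with a median of 8.64 over the 6 arrays of E8.5, and read 8.82, 8.7 and 9.36 at E9.5. The groups did not overlap between E7.5 and E8.5, but those of E8.5 and E9.5 did. The later levels were 9.44, 9.55 and 9.64 at E10.5, 9.91, 9.93 and 9.89 at E11.5, and 11.39, 10.45 and 10.74 at E12.5, so each of these stages lay wholly above the one before. The rise from E7.5 to E8.5 was 1.70 ± 0.23 (log2 difference ± SE; 3.26-fold, adjusted p = 0.0059). That from E8.5 to E12.5 was 2.16 ± 0.19 (4.47-fold, adjusted p = 1.4e-09), of which 0.95 ± 0.22 fell between E11.5 and E12.5 (adjusted p = 0.0011).

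The other Eif2ak1 probes were dimmer and differed in timing. Probe ILMN_1250901 was at background on all arrays with 2 rounds. After 1 round it ranged from 4.63 to 5.41 at E8.5 with detection on 4 of 6 arrays, and read 6.32, 7.21 and 5.75 at E9.5, where every array lay above every E8.5 array. This rise of 1.41 ± 0.24 had an adjusted p of 2e-04. From E10.5, at 5.75, 6.12 and 6.08, it rose again to 6.85, 7.12 and 7.04 at E11.5, a difference of 1.02 ± 0.28 (adjusted p = 0.023) that missed the threshold when any 1 of 4 arrays was left out (adjusted p 0.051 to 0.12). At E12.5 it read 6.67, 7.12 and 6.95, with no further difference called, and cyclic loess normalisation gave a fall of that probe from E11.5 (log2 difference -1.04, adjusted p = 0.0071). The third probe, ILMN_2496209, was measured above background only at E8.5 after 2 rounds, at 6.51, 6.68 and 5.26, and on 2 E11.5 arrays. Its rise from E7.5 was at least 3.03-fold (adjusted p = 0.024) and was lost when any 1 E7.5 array was left out (adjusted p 0.051 to 0.11). This probe was tested after 2 rounds only because of its E8.5 arrays, so a rise was the only call open to it. With the authors' processed values its log2 difference was 0.36 (adjusted p = 0.054).

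Atf4 encodes the central transcription factor of the response, which is controlled largely at translation. Its brightest probe, ILMN_2642681, read 10.22, 10.01 and 9.99 at E7.5 and 10.76, 10.6 and 10.68 at E8.5 after 2 rounds. These groups did not overlap, and the rise of 0.60 ± 0.14 passed (1.52-fold, adjusted p = 0.032), but leaving out any single array ended the call (adjusted p 0.055 to 0.18). With 1 round the E8.5 arrays separated by slide, at 9.01, 8.98 and 8.99 on slide 2 and 7.49, 7.56 and 7.37 on slide 3. Levels were 8.35, 8.68 and 8.95 at E9.5, 8.55, 8.49 and 8.92 at E10.5, 8.03, 8.16 and 8.27 at E11.5, and 7.71, 7.57 and 8.15 at E12.5. Every later array lay between the E8.5 arrays of slide 3 and those of slide 2. No stage with 1 round differed from its neighbour by the main test, and E12.5 against E8.5 gave -0.42 ± 0.33 (adjusted p = 0.26). That test shares 1 spread among stages, which includes the split E8.5 arrays (SD 0.84). On slide 4, E11.5 lay wholly below E10.5, at -0.50 ± 0.38 (adjusted p = 0.49). This fall passed with only those 2 groups fitted (adjusted p = 0.012) and with a replicate block (adjusted p = 0.042).

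The sign of the Atf4 comparison depended on which E8.5 arrays were used. Fits that leave out the E8.5 arrays of 1 slide were added after seeing the data. Within slide 3, E12.5 exceeded E8.5 by 0.34 ± 0.20 (adjusted p = 0.18), whereas without the slide 3 arrays of E8.5 the difference was -1.19 (adjusted p = 1.8e-05). Against the slide 3 arrays alone, E9.5 was higher by 1.19 (adjusted p = 7.1e-05), while within slide 2 it differed by -0.34 (adjusted p = 0.31). Of the dimmer probes, ILMN_1232872 ranged from 4.77 to 5.08 at E8.5 and read 5.35, 5.22 and 5.28 at E12.5, a rise of 0.40 ± 0.13 (adjusted p = 0.01) that was lost with cyclic loess (0.21, adjusted p = 0.35) and within slide 3 (0.38, adjusted p = 0.055). Probe ILMN_1223734 averaged 6.39 at E8.5 on slide 2 and 4.49 on slide 3, and read 4.4, 6.28 and 7.18 at E12.5. Its difference of E12.5 from E8.5 was 0.51 ± 0.57 (adjusted p = 0.44), and with slide as a fixed block it passed at 1.46 ± 0.53 (adjusted p = 0.02) and did not within slide 3 alone (1.46, adjusted p = 0.051).

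**Figure D2:**
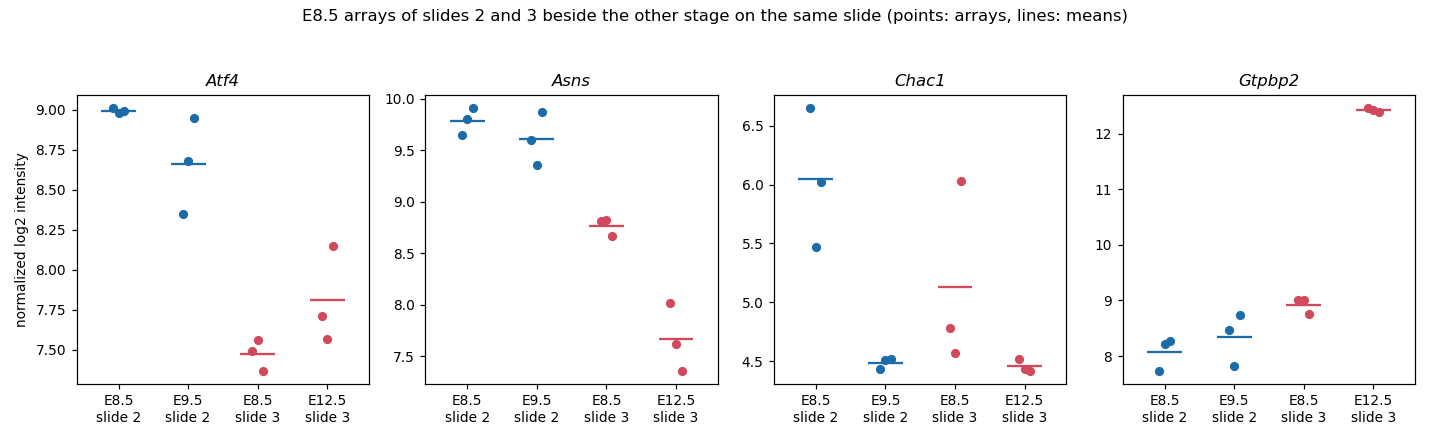
Normalised log2 intensity of the brightest probe of Atf4, Asns, Chac1 and Gtpbp2 at E8.5 on slide 2 and on slide 3, beside E9.5, the other stage of slide 2, and E12.5, the other stage of slide 3. Points are arrays and lines are means of 3. Atf4 at E8.5 averages 8.99 on slide 2 and 7.47 on slide 3, and only for Gtpbp2 among these 4 genes is E8.5 higher on slide 3.

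The split of E8.5 by slide touched other members as well, and the labels used here give no difference between these arrays other than the slide. The slide 3 mean minus the slide 2 mean was -1.52 for the brightest Atf4 probe, -1.91 for ILMN_1223734, -0.63 for Eif2ak1 ILMN_1250901, -1.02 and -1.06 for the Asns probes, -0.92 for Chac1, and 0.84 and 0.42 for the Gtpbp2 probes. Over all 17408 probes the median size of this difference was 0.22, and 3.7% of probes differed by more than 1 log2 unit. The probes of Trib3, Ppp1r15a and Ddit3 and the brightest Eif2ak1 probe differed by 0.34 or less. The deposited signals of slides 2 and 4 shared 1 distribution, their quantiles differing by at most 0.665%. On slide 3, which holds E8.5 and E12.5, quantiles differed by up to 229.837%. What separates the slides was not tested.

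Ddit3 encodes CHOP, a transcription factor induced by ATF4 and linked to cell death under lasting stress. Its probe, ILMN_2652909, read 4.67, 5.2 and 5.87 at E7.5 and 4.93, 5.58 and 6.47 at E8.5 after 2 rounds, which overlap. After 1 round it ranged from 6.5 to 8.06 with a median of 6.87 at E8.5, and read 5.42, 5.68 and 7.14 at E9.5, 6.81, 6.44 and 6.67 at E10.5, 7.1, 7.33 and 7.33 at E11.5, and 8.07, 8.36 and 8.86 at E12.5. Every E12.5 array lay above every other array, though only just above E8.5 replicate 6. The rise was 1.43 ± 0.32 from E8.5 (2.69-fold, adjusted p = 0.00038; 1.26, adjusted p = 0.017, within slide 3) and 1.18 ± 0.36 from E11.5 (2.26-fold, adjusted p = 0.01).

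The Ddit3 calls depended on the processing. With cyclic loess the differences were 0.83 from E8.5 (adjusted p = 0.07) and 0.48 from E11.5 (adjusted p = 0.43), and the second was also lost without E12.5 replicate 3 (0.96, adjusted p = 0.061) and with slide as a random block (1.08, adjusted p = 0.11). Between E8.5 and E9.5 Ddit3 fell by 0.92 ± 0.32 (adjusted p = 0.049), but the groups overlap and the call was lost within slide 2 (-0.75, adjusted p = 0.2) and without E9.5 replicate 1 (-0.59, adjusted p = 0.32). Atf5, a related factor whose translation is also favoured under stress, ranged from 4.98 to 6.98 on the arrays with 1 round, and no comparison of its probe passed. It read 5.97, 5.99 and 6.61 at E7.5 and 6.98, 6.97 and 6.35 at E8.5 after 2 rounds (0.57, adjusted p = 0.3).

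The ATF4 targets among the members went in different directions, and their promoters were read to see which hold the element that ATF4 with C/EBP partners is known to bind. Windows of 300 bases, from 250 before to 50 after the annotated start, came from RefSeq on GRCm38.p6, with 11 windows matched to the 10 genes by symbol, Atf5 having a pair. The letters TGATGNAA, the core of the C/EBP-ATF element, were searched on both strands and were in 3 member windows and in 4.0% of 32851 windows in all. The letters TGACGTCA, the cAMP response element, which reads the same on both strands, were in 1 member window and in 1.8% of all. The letters AGATAA, a form of the GATA motif, were in 2 member windows, of Ddit3 and Ppp1r15a, and in 11.2% of all. The windows of the genes with 1 of the first 2 motifs are shown, 5′ to 3′ on the gene's strand, with the matched letters in capitals, because Trib3 and Ppp1r15a rose and Asns and Chac1 fell. They lie at chr2:152344011-152344310 (minus strand) for Trib3, chr6:7693160-7693459 (minus strand) for Asns, chr2:119350992-119351291 (plus strand) for Chac1 and chr7:45526219-45526518 (minus strand) for Ppp1r15a.
Trib3: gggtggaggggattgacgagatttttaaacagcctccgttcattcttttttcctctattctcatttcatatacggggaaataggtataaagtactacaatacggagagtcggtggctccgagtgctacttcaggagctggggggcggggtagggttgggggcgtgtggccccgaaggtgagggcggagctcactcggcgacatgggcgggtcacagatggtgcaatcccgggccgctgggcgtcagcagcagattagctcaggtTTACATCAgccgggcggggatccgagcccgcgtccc
Asns: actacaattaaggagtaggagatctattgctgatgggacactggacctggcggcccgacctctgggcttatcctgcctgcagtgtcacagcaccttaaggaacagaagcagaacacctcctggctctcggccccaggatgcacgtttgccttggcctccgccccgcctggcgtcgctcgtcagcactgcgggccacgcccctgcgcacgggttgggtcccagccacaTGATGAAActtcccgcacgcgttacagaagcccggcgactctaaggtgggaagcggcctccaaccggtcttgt
Chac1: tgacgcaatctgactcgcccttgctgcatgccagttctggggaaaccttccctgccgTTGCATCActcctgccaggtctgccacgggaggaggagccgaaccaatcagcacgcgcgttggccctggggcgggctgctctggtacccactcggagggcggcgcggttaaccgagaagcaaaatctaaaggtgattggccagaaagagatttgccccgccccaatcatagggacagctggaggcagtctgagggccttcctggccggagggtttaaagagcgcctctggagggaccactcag
Ppp1r15a: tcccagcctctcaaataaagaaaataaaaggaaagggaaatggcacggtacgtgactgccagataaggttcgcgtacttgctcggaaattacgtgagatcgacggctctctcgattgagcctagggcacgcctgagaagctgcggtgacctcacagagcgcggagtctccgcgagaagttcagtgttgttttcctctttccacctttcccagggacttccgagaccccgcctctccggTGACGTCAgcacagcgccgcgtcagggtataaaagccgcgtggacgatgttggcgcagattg
Counted from the annotated start as position 1, the match begins at position 15 in Trib3, -23 in Asns, -193 in Chac1 and -12 in Ppp1r15a, and the matches of Trib3 and Chac1 are on the opposite strand. A match describes these letters only, and whether it is bound or is a cause was not tested. Both directions of change occur among the 3 genes with the C/EBP-ATF core.

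Trib3 encodes a pseudokinase that is induced by ATF4 and CHOP and feeds back on both. After 2 rounds its brightest probe, ILMN_1225528, read 5.87, 6.42 and 7.11 at E7.5 and 8.96, 9.62 and 10.06 at E8.5. The groups did not overlap, and the rise of 3.08 ± 0.40 (8.46-fold, adjusted p = 0.0054) passed. With the authors' processed values it was 1.85 (adjusted p = 0.0078). After 1 round the probe ranged from 7.49 to 8.57 with a median of 7.94 at E8.5, and read 7.23, 7.27 and 9.04 at E9.5, 8.02, 7.94 and 8.33 at E10.5, and 8.55, 8.69 and 8.05 at E11.5. At E12.5 it read 12.07, 10.71 and 11.4, above every earlier array. Between E8.5 and E11.5 no step of any Trib3 probe passed. After 2 rounds, ILMN_1252762 was at background on all arrays of both stages. Probe ILMN_1244279 was detected there on 2 of 3 E8.5 arrays and on no E7.5 array, and neither of these dimmer probes was tested.

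The rise of Trib3 at E12.5 was seen on all of its probes. From E11.5 to E12.5 the brightest rose by 2.96 ± 0.38 (7.79-fold, adjusted p = 1.8e-06), ILMN_1252762 by 2.66 (6.32-fold) and ILMN_1244279 by 2.32 (4.98-fold). With cyclic loess the last 2 gave 1.75 (adjusted p = 9e-04) and 1.05 (adjusted p = 0.034). ILMN_1252762 read 6.6, 6.7 and 6.18 at E11.5 and 9.59, 8.7 and 9.17 at E12.5, while ILMN_1244279 read 5.88, 6.24 and 5.87 and then 8.71, 7.49 and 8.73. Replicate 2 was the lowest E12.5 array on all of these probes, and it still lay above all arrays of E11.5. From E8.5 the brightest probe rose by 3.39 ± 0.33 (adjusted p = 7.1e-09), and within slide 3 by 3.5 ± 0.30 (adjusted p = 1.5e-05).

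Gtpbp2 encodes a GTP-binding protein that acts in the rescue of stalled ribosomes. After 2 rounds its brightest probe, ILMN_2600113, read 8.01, 7.88 and 7.76 at E7.5 and 10.71, 10.35 and 10.45 at E8.5, a rise of 2.62 ± 0.17 between groups that did not overlap (6.14-fold, adjusted p = 0.0012). The dimmer probe, ILMN_2550240, was detected on all of these arrays, but its groups overlapped and it gave 0.36 ± 0.19 (adjusted p = 0.29). After 1 round the brightest probe ranged from 7.74 to 9.01 with a median of 8.51 at E8.5, and read 8.47, 7.83 and 8.73 at E9.5, 9.25, 9.61 and 9.81 at E10.5, 10.48, 10.65 and 10.33 at E11.5, and 12.46, 12.42 and 12.39 at E12.5. From E10.5 on, each stage lay wholly above the one before, and the E12.5 arrays differed by less than 0.1 among themselves. From E8.5 to E12.5 it rose by 3.92 ± 0.25 (15.2-fold, adjusted p = 6e-12). Within slide 3 it was 3.5 ± 0.16 (adjusted p = 1.1e-06).

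The steps of Gtpbp2 differed in how firmly they held. From E11.5 to E12.5 the brightest probe rose by 1.93 ± 0.29 (3.82-fold, adjusted p = 8.8e-06). The rise from E9.5 to E10.5 (1.21 ± 0.29, adjusted p = 0.029) was lost without any 1 of 4 arrays (adjusted p 0.083 to 0.23) and with slide as a random block (0.97, adjusted p = 0.51). The rise from E10.5 to E11.5 (0.93 ± 0.29, adjusted p = 0.039) was lost without any 1 of its 6 arrays (adjusted p 0.051 to 0.2). After 1 round the dimmer probe read 6.8, 6.26 and 6.7 at E10.5, 8.37, 8.45 and 7.89 at E11.5, and 8.92, 9.65 and 9.63 at E12.5. Its groups did not overlap either, and its larger step lay a day earlier, at 1.65 ± 0.23 to E11.5 (adjusted p = 0.00011) against 1.16 ± 0.23 to E12.5 (adjusted p = 0.00024), a contrast between steps that was not tested.

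Asns encodes asparagine synthetase, a classical ATF4 target. Its brightest probe, ILMN_2643513, read 10.44, 10.46 and 10.3 at E7.5 and 11.11, 11.3 and 10.94 at E8.5 after 2 rounds. This rise of 0.72 ± 0.14 between groups that did not overlap (1.64-fold, adjusted p = 0.021) was lost without any 1 E7.5 array or without E8.5 replicate 2 (adjusted p 0.053 to 0.1). With 1 round the same probe ranged from 8.67 to 9.91 with a median of 9.24 at E8.5, and read 9.6, 9.36 and 9.87 at E9.5, 9.82, 9.41 and 9.65 at E10.5, 8.48, 8.74 and 8.62 at E11.5, and 8.02, 7.62 and 7.36 at E12.5. All E12.5 arrays lay below all others, and all E11.5 arrays below those of E9.5 and E10.5. From E8.5 to E12.5 the probe fell by 1.61 ± 0.25 (3.06-fold lower, adjusted p = 7.2e-06), and within slide 3 by 1.10 ± 0.20 (adjusted p = 0.0016).

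The single steps of Asns were near the threshold. The fall from E10.5 to E11.5 (-1.01 ± 0.29, adjusted p = 0.03) was lost without any 1 of its 6 arrays (adjusted p 0.052 to 0.14). The fall from E11.5 to E12.5 (-0.95 ± 0.29, adjusted p = 0.01) was lost without E12.5 replicate 3 (-0.80, adjusted p = 0.055) and with slide as a random block (-0.67, adjusted p = 0.15). The dimmer probe, ILMN_2636755, ranged from 5.18 to 6.91 at E8.5 and was detected on no E12.5 array, which puts its fall at 2.09-fold or more (adjusted p = 4.4e-05). With cyclic loess that probe gave -0.03 (adjusted p = 0.97).

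Chac1 encodes an enzyme that degrades glutathione. Its probe, ILMN_2617468, read 5.78, 5.31 and 4.2 at E7.5 and 4.99, 5.58 and 8.83 at E8.5 after 2 rounds, where 1 array set the mean and no difference passed (1.37 ± 0.98, adjusted p = 0.45). With 1 round it was detected on 5 of 6 E8.5 arrays, at 4.57 to 6.65 with a median of 5.74, and every later array read 4.4 to 4.53, at background. From E8.5 to E9.5 the fall was at least 2.14-fold (adjusted p = 0.0078), and within slide 2 the log2 difference was -1.56 ± 0.23 (adjusted p = 0.00055). Within slide 3, E12.5 against E8.5 gave -0.67 (adjusted p = 0.099). Testing required detection on at least 3 arrays, which this probe met after 1 round only through E8.5. A fall from E8.5 was thus the only call open to it, and these p-values lend the fall no support. Sesn2, which encodes a leucine-binding inhibitor of mTORC1 signalling, was near background at every stage, its brighter probe spanning 4.52 to 4.95 after 1 round, and no comparison of it passed.

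Ppp1r15a encodes GADD34, the inducible phosphatase subunit that reverses eIF2 phosphorylation. Its probe, ILMN_2722938, read 7.4, 7.2 and 7.68 at E7.5 and 6.67, 8.06 and 8.94 at E8.5 after 2 rounds, which overlap (0.46, adjusted p = 0.67). With 1 round it ranged from 6.94 to 7.72 with a median of 7.37 at E8.5, and read 6.68, 7.16 and 7.27 at E9.5, 7.55, 7.69 and 7.71 at E10.5, 8.25, 8.42 and 7.85 at E11.5, and 9.83, 8.8 and 9.54 at E12.5. The E12.5 arrays lay above all others, replicate 2 being the lowest as for Trib3. The rise was 2.05 ± 0.22 from E8.5 (4.14-fold, adjusted p = 4.1e-08; 2.11, adjusted p = 0.00032, within slide 3) and 1.22 ± 0.26 from E11.5 (2.33-fold, adjusted p = 0.00046).

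**Figure D3:**
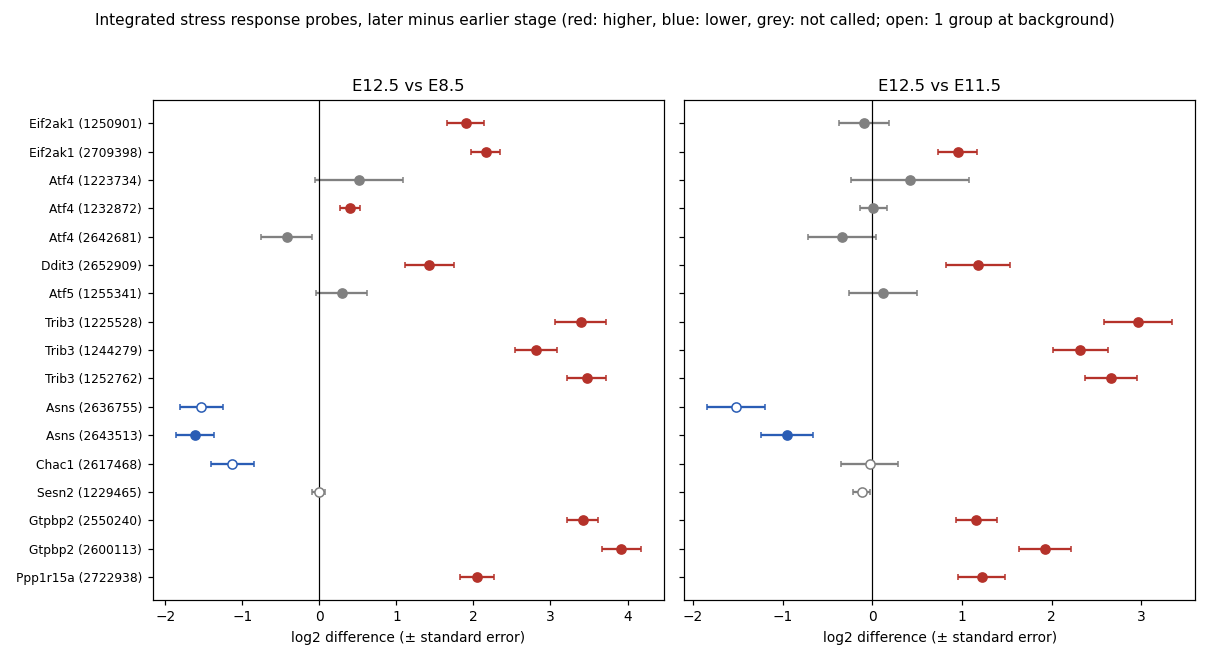
Log2 difference of E12.5 from E8.5, on the left, and from E11.5, on the right, for the 17 member probes tested. Points are fitted differences and bars are standard errors, red marks probes called higher, blue lower and grey neither, and open points have a group at background. The Gtpbp2 and Trib3 probes reach 2.81 to 3.92 against E8.5, and the Asns probes lie at -1.61 and -1.53. Median scaling is not plotted. On that scale Ddit3, Ppp1r15a, the brightest Eif2ak1 probe and the Gtpbp2 probes stay positive in both comparisons. Only after the median of all probes is taken off is Ddit3 negative in both. Ppp1r15a, the brightest Eif2ak1 probe and 1 Gtpbp2 probe are then negative in the second.

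The reading of E12.5 depends on how arrays are put on one scale, since fewer probes are detected there. Quantile normalisation holds the median of all probes in place, whereas aligning arrays on the median of the probes detected on every array (median scaling) put the median log2 difference of all probes at 1.96 against E8.5 and at 2.20 against E11.5. Relative to that median, E12.5 exceeded E8.5 by 0.76 to 1.67 for the Trib3 probes, by 1.68 and 2.15 for Gtpbp2, by 0.08 and 0.48 for Eif2ak1 and by 0.07 for Ppp1r15a, while Ddit3 changed sign to -0.84 and Asns lay at -3.81 and -1.19. Against E11.5, the Trib3 probes remained positive at 0.15 to 1.22, but Ppp1r15a turned to -0.82, Ddit3 to -1.16, the brightest Eif2ak1 probe to -0.69, and the Gtpbp2 probes were split at 0.23 and -0.72. Before that median was taken off, all of these were positive under median scaling in both comparisons. The median covers probes at or near background at E12.5 as well, such as Chac1 (2.92 against E11.5) and Sesn2 (2.61). Cyclic loess gave E12.5 against E8.5 as 1.65 to 3.96 for Trib3, 3.38 and 4.67 for Gtpbp2, 1.03 and 2.96 for Eif2ak1 and 2.09 for Ppp1r15a. In the E12.5 comparisons with E8.5 and with E11.5, the calls of the 3 Trib3 probes, both Gtpbp2 probes, Ppp1r15a and the brightest Eif2ak1 probe passed under every alternative run, on each alternative's own scale. Median scaling called 13889 and 14293 of all 17408 probes higher in these comparisons, so a pass under it says little about a probe.

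Markers of other cells and of handling moved with these steps, and their part in the members' differences was not tested. The summed linear intensity of 15 immediate early genes, which are quickly induced by handling as well as by signals, was 967.1 to 2389 at E8.5, 735.9 to 901.1 at E9.5, 1405 to 1576 at E11.5 and 2816 to 4511 at E12.5 after 1 round, although 7 of the 15, Fosb, Jun, Egr2, Ier2, Nr4a1, Btg2 and Atf3, were detected on no E12.5 array. From E8.5 to E9.5, where Chac1 and Ddit3 fell, 4 of 10 immediate early probes fell and none rose. After 2 rounds the sum was 770.1 to 1234 at E7.5 and 1957 to 3212 at E8.5. Visceral endoderm markers summed to 344.8 to 665.1 at E7.5 and 991.4 to 2945 at E8.5 after 2 rounds, with 9 of 11 genes detected on all these E8.5 arrays and Sox17 and Foxa2 on none. Over the same step endothelial markers went from 2297 to 2914 down to 933.4 to 1628. Erythroid markers went from 8887 to 23290 up to 55040 to 69020. Epiblast markers went from 4904 to 7476 down to 1822 to 2125. Of 7 epiblast genes, 3 were detected on no E7.5 array and 6 on none of these E8.5 arrays. Macrophage and leukocyte markers went from 3670 to 5076 down to 501.6 to 1023. Of these 6 genes, Ptprc, Fcgr3, Lyz2 and Tyrobp were detected on no E7.5 array, and 4 on none of these E8.5 arrays. After 1 round, visceral endoderm markers summed to 321.2 to 841.2 at E8.5, 264 to 332.4 at E9.5 and 261 to 280.9 at E12.5, where 9 of 11 were detected on no array. Mesenchyme markers summed to 392.3 to 809.6 at E8.5 and 2143 to 3262 at E12.5, with Col1a1, Col1a2 and Col3a1 detected on no array of either. At E12.5, megakaryocyte markers summed to 1141 to 1716 against 384.9 to 426.3 at E11.5, with Pf4, Gp9, Itgb3 and Ppbp detected on no E12.5 array.

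Other genes of the pathway were read from lists of named genes. Most called probes for eIF2, eIF2B and the list of other kinases and their regulators fell from E8.5 to E12.5, where Eif2ak1 rose. For the kinase and regulator list this held only before median scaling. Of 11 tested probes for eIF2 and its exchange factor eIF2B, none rose and 8 fell from E8.5 to E12.5 (median log2 difference -1.32), a direction kept by median scaling (1 higher, 9 lower) and cyclic loess (0 higher, 8 lower). Eif2b1, a regulatory eIF2B subunit, fell by 3.71 ± 0.17 (adjusted p = 4.6e-14), Eif2b5, the catalytic subunit, fell by 1.68 ± 0.19 (adjusted p = 4.7e-08) and Eif2s2, the beta subunit of eIF2, fell by 1.46 ± 0.23 (adjusted p = 5.7e-06). Among 11 probes of the other eIF2 kinases and their regulators, 1 rose and 7 fell, with a median of -0.48 that became 1.47 under median scaling, or -0.49 relative to all probes. Dele1, which relays mitochondrial stress to HRI in human cells, fell at least 2.97-fold (adjusted p = 2.5e-10). Ppp1r15b, the constitutive partner of the phosphatase, rose by 1.15 ± 0.16 (adjusted p = 1.7e-06), or -0.95 relative to all probes under median scaling.

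The wider ATF4 targets were divided by function in the same comparison of E12.5 with E8.5. Of 14 probes for amino acid transporters, 9 rose and 2 fell (median 1.05, or 0.27 relative to all probes under median scaling). Slc6a9, the glycine transporter, rose by 3.32 ± 0.18 (adjusted p = 6e-13) and Slc1a4, a neutral amino acid transporter, by 3.40 ± 0.27 (adjusted p = 2e-10). Slc7a11, the cystine transporter, rose by 1.39 ± 0.15 (adjusted p = 2e-08), but with cyclic loess it gave 0.17 (adjusted p = 0.37), and that method called 4 transporter probes higher and none lower with a median of 0.12. With quantile normalisation the transporters also rose within slide 3, with 8 probes higher and 2 lower.

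Enzymes of amino acid synthesis and of tRNA charging went the other way. Of 9 probes for amino acid synthesis none rose and 6 fell (median -1.19), among them Psat1 and Shmt2. Psat1, of the serine pathway, fell by 4.02 ± 0.29 (adjusted p = 5.3e-11), and Shmt2, the mitochondrial serine hydroxymethyltransferase, was at least 4.72-fold lower (adjusted p = 3.6e-11). Of 16 probes for aminoacyl-tRNA synthetases and the tRNA exporter Xpot, 1 rose and 12 fell (median -0.70), and the glycyl-tRNA synthetase Gars fell by 2.21 ± 0.26 (adjusted p = 1.1e-07). Median scaling turned these medians to 0.43 and 1.00, which relative to all probes are -1.53 and -0.96. Within slide 3, 6 of 9 synthesis probes and 7 of 16 synthetase probes fell. Of 17 probes for stress effectors, 8 rose and 4 fell, the median of 0.27 being -0.02 with cyclic loess, and Rit1, a Ras-like GTPase, rose by 3.43 ± 0.16 (adjusted p = 2.8e-14).

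The lists of neighbouring stress responses were led by falls of mitochondrial chaperones. Of 13 probes for the mitochondrial list, 2 rose and 7 fell (median -0.84, turning to 1.21 under median scaling, or -0.75 relative to all probes), among them Hspd1 and Hspa9. Hspd1, the mitochondrial HSP60, fell by 4.55 ± 0.32 (adjusted p = 3.4e-11), and Hspa9, the mitochondrial HSP70, fell by 3.90 ± 0.27 (adjusted p = 3.2e-11). Of 13 probes for the endoplasmic reticulum response, 3 rose and 6 fell (median -0.12), Atf6, a sensor of that response, being higher by 1.41 ± 0.13 (adjusted p = 1.9e-09; 0.09 with cyclic loess, adjusted p = 0.6). The chaperone Hsp90b1 fell by 1.81 ± 0.26 (adjusted p = 1.7e-06). Of 4 probes for ATF4 partners, 1 fell and none rose, and of 5 for the phosphatase partners 2 rose and 3 fell. For counts from quantile normalisation of all arrays, the shares over all probes are 32.2% higher and 35.1% lower. Of 17408 probes, slide 3 alone gave 4503 higher and 5283 lower, cyclic loess 2101 and 2673, and median scaling 13889 and 1885.

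From E7.5 to E8.5, after 2 rounds, transporters again had rises, and no falls. Of 10 tested transporter probes 4 rose and none fell (median 0.48), including Slc6a9 by 1.22 (adjusted p = 0.0025), Slc7a5, a leucine transporter, by 0.87 (adjusted p = 0.012) and Slc38a2, a glutamine transporter, by 1.11 (adjusted p = 0.015). Of 14 synthetase probes 2 rose, of 5 synthesis probes none was called, and none of 10 probes for eIF2 and eIF2B was called. Endoplasmic reticulum chaperones had 3 of 13 probes lower and none higher, and immediate early genes 4 of 9 higher. Over all probes 6.04% were higher and 6.03% lower at this step.

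**Figure D4:**
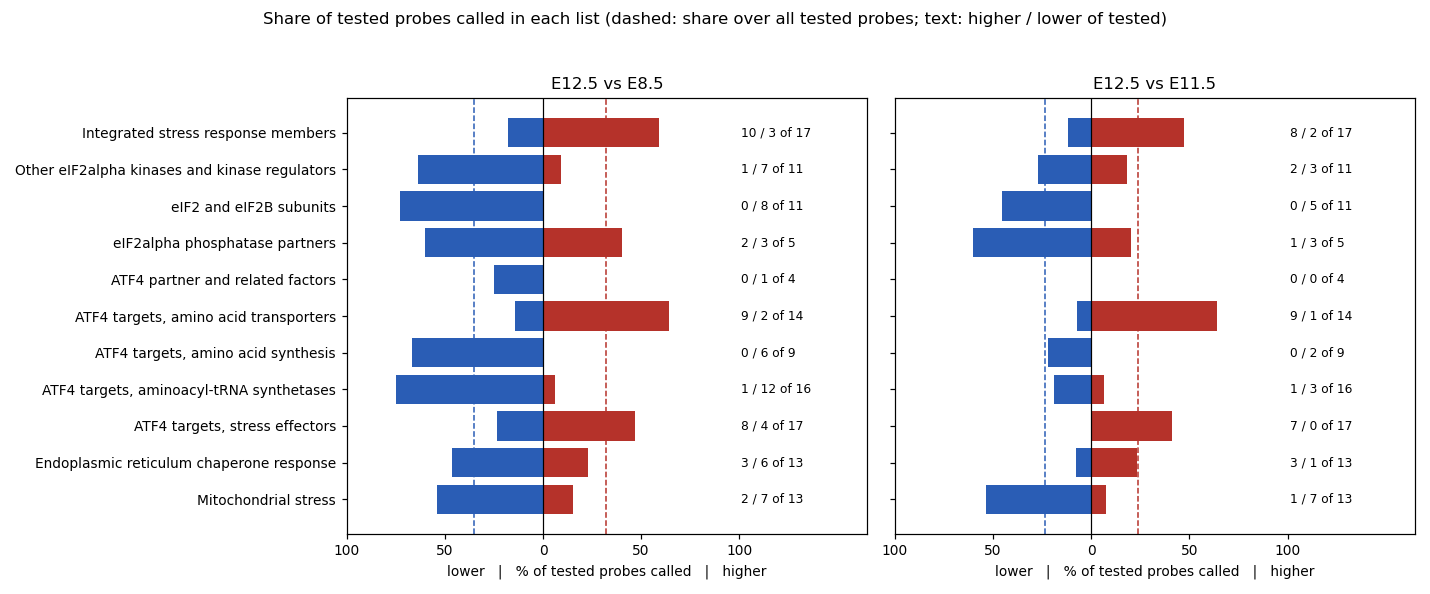
Share of tested probes called higher, in red to the right, and lower, in blue to the left, in each list of genes for E12.5 against E8.5 and against E11.5. Dashed lines mark the shares over all probes tested, and the text gives higher and lower calls of probes tested. The members, the transporters and the stress effectors have most calls to the right. The synthesis, synthetase, eIF2, kinase, phosphatase and mitochondrial lists have most to the left. Under median scaling the synthesis, synthetase, kinase and mitochondrial medians change sign before the shift of all probes is taken off.

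Across the 18 arrays amplified in 1 round, the genes most like 4 members were ranked by Pearson correlation of normalised log2 intensity, as a description of arrays that share stages and slides. For the brightest Eif2ak1 probe these were Arhgap23 (0.985), Ranbp10 (0.984), Abca7 (0.983) and St3gal5 (0.981). For Asns they were Cmss1 (0.968), Cops5 (0.967), Eif4a1 (0.965) and Abcf2 (0.964). For Atf4 they were Ubxn1 (0.914), Larp7 (0.907), Cops4 (0.9) and Atg3 (0.893), on arrays that include its split between slides at E8.5. For Ddit3 they were Cpsf4 (0.896), Herpud1 (0.891), Ssbp3 (0.885) and Dcaf8 (0.883).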

How the data were processed

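Each of the 24 sorted samples was hybridised to 1 Illumina bead array. Per probe and array, an intensity and a detection p-value were deposited, both computed by the authors' scanner software, per the file headers. The headers call the intensity values non-normalized, but those of slides 2 and 4 share 1 distribution, their quantiles differing by at most 0.665%. Quantiles differed by up to 24.633% on slide 1 and by up to 229.837% on slide 3. The authors also deposited processed values, which behave as log2 intensities, and they were used as an alternative. Scanner software and settings are not given in the sources used here.

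Signals were background-corrected, offset by 16 and quantile-normalised in log2 with neqc of limma 3.58.1 in R 4.3.3 (tables read with data.table, version 1.17.8), apart for the 18 arrays with 1 round of amplification and the 6 with 2 rounds. Probes detected at p under 0.05 on at least 3 arrays were tested, 17408 and 13941 in number, with moderated statistics and an intensity trend, adjusted by Benjamini-Hochberg over all of them. Where a group was detected on no array, the fold is a lower bound, taken against the lowest detected signal or the probe's own, whichever is higher. Of all probes, 29490 carry 1 symbol, 8 several and 16221 none, and only the first kind is named. Members, lists and tests were chosen with earlier results of these data known. The text names every member and up to 3 called genes a list. These had the smallest p in the test for any difference among the stages with 1 round, or in the 2-round test of E8.5 against E7.5. The scripts were tested on simulated data. The E8.5 arrays with 1 round repeat 3 description numbers, but same-numbered arrays correlated at -0.255 to -0.0175 after removal of slide means, and all 6 were used. E9.5 replicates 1 and 2 share a description and correlated at 0.9867, the other E9.5 pairs at 0.9726 and 0.9768. Among 355 probes differing over 4-fold between E7.5 replicates 1 and 3, replicate 2 lay between them for 99.7%. Replicate numbers did not pair samples across stages (correlations of deviations -0.14 to 0.151). Array number limits precision.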

Additional observations from a re-analysis of the deposited data

Results flagged for a closer look

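At E8.5 with 1 round of amplification, the only group of over 3 arrays, 2 of 19 member probes had an array farther from the rest than Dixon's 95% limit of 0.625 allows for 6 arrays. Chance flags about 1 in 20 such groups. For Ddit3, probe ILMN_2652909, replicate 6 read 8.06, the next array 7.05 and the lowest 6.5. That array is the E8.5 value nearest to the E12.5 levels, and without it the fall of Ddit3 from E8.5 to E9.5 was -0.71 with an adjusted p of 0.1. For Eif2ak1, probe ILMN_2496209, replicate 4 read 4.64, the next array 4.56 and the lowest 4.53, all at background.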

How the results depend on the processing

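Among member probes, the number called moved by over 1.5 times in 23 planned combinations of comparison and setting, and not in 110. For E11.5 against E10.5 it fell from 4 to between 1 and 2 whenever any 1 of the 6 arrays was left out. With only the brightest probe of each gene, 2 were called for E11.5 against E10.5, 6 for E12.5 against E11.5, 7 for E12.5 against E8.5 and 7 for any difference, fewer probes being tested. With no filter on dim probes, 0 were called for E10.5 against E9.5 and 1 for E11.5 against E10.5. A random slide block gave 0 for E10.5 against E9.5 (consensus correlation within slides 0.3). A fit of only the 2 groups compared gave 8 for E11.5 against E10.5, and for E8.5 with E9.5 it gave 1. Without the E8.5 arrays of slide 2, an alternative chosen after seeing the data, 7 were called for E9.5 against E8.5. The cause was not tested in these fits. Leaving out single arrays gave 3 to 5 for E8.5 against E7.5, 2 to 3 for E9.5 against E8.5, 0 to 1 for E10.5 against E9.5, 1 to 2 for E11.5 against E10.5, 8 to 10 for E12.5 against E11.5, 13 to 13 for E12.5 against E8.5 and 12 to 13 for any difference.

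Median scaling reversed 3 dim probes at or near background in E12.5, against E11.5 and E8.5 in turn: Asns ILMN_2636755 (0.94, 0.77), Chac1 (2.92, 1.20) and Sesn2 (2.61, 2.33). With a replicate block, E12.5 against E8.5 became -1.19 for Atf4 (adjusted p = 4.7e-06), which then rests on E8.5 replicates 1 to 3. The replicate block also moved calls over all probes from 296 to 673 for E10.5 against E9.5 and from 1831 to 2764 for E11.5 against E10.5.

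Over all probes, E12.5 against E11.5 gave 8189 calls (50.1% higher), 3516 with cyclic loess and 15168 with median scaling (94.2% higher). E12.5 against E8.5 gave 11722 (47.8% higher), 4774 with cyclic loess and 15774 with median scaling (88% higher). E9.5 against E8.5 gave 2883 (45.7% higher), 5263 with median scaling (23% higher), 1879 within slide 2 and 5465 without the E8.5 arrays of slide 2. E10.5 against E9.5 gave 296 (63.9% higher), 743 with cyclic loess, 527 with median scaling (45.5% higher), 181 with no filter, 759 with only its groups and 22 with a random slide block. E11.5 against E10.5 gave 1831 (48.4% higher), 2958 with cyclic loess, 2571 with median scaling (36.3% higher), 1116 with no filter and 4415 with only its groups. E8.5 against E7.5 gave 1683, and 886 with no filter. Probes below background limit what can be read of Sesn2, Chac1 after E8.5 and the dimmer probes of Eif2ak1, Atf4 and Asns.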
